A study of Macaca fascicularis with 9 samples.

Results

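HID1, TELO2, CLTCL1, KAT2A and SMPD4 are 5 of the 29128 features counted in single nuclei of cynomolgus monkey thalamus. They were chosen by measured values of this series, as genes with more RNA after OTV:MALAT1 than after saline, so their difference between those groups is a description and carries no test. Each of the 3 groups had 3 female animals. The saline group was dosed 4 times by vein. The OTV group was dosed 4 times by vein at 30 mpk with OTV:MALAT1, in which a carrier that recognises the transferrin receptor brings in an oligonucleotide against MALAT1, a long noncoding RNA. The ASO group had a single dose, 4 mg, of antisense oligonucleotide (ASO) to MALAT1 placed in the cerebrospinal fluid (intrathecal). All thalami were collected 2 weeks after dosing ended. Route, number of doses and molecule all differ between the ASO and OTV groups and cannot be told apart.

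The 5 genes act in different places. HID1 sits at the Golgi and is needed to sort cargo into dense-core vesicles, which store peptides for secretion. TELO2 is part of the TTT complex, which helps the chaperone machinery to fold and stabilise the large PI3K-related kinases that sense DNA damage, nutrients and faulty RNA. CLTCL1 is a clathrin heavy chain, a close relative of the main heavy chain CLTC, and is best known for membrane traffic in muscle. KAT2A is the histone acetyltransferase of the SAGA and ATAC coactivator complexes. SMPD4 is a neutral sphingomyelinase of the endoplasmic reticulum and nuclear envelope, which releases ceramide from sphingomyelin.

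The matrix held 79994 nuclei, with 2956 to 11992 nuclei and 20.0 to 98.9 M (mega) unique molecular identifiers (UMIs, each standing for a captured RNA molecule) per animal. Median depth was 2579 UMIs in OTV replicate 3 and 4741.5 to 7791 in the other animals. MALAT1 took 5.38% to 6.36% of UMIs in saline animals, 4.15% to 5.60% after ASO and 3.12% to 3.80% after OTV. Oligodendrocytes made up 36.3% of nuclei in saline replicate 3 and 73.1% to 89.1% in the others. A score of diencephalic against telencephalic astrocyte genes was -3.79 in saline replicate 3, -3.48 in ASO replicate 3 and -1.08 in saline replicate 1, and 0.70 to 1.84 in the other 6 animals. Each named cell type had the highest summed level of its own marker list. The part of depth and region in the levels was not tested beyond the alternatives given for single values. Of the 79232 distinct barcode sequences, 760 occurred in more than 1 animal.

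Levels of the chosen genes are given as CPM (counts per 1000000 counts), the mean over nuclei of the gene's share of each nucleus's UMIs. Each nucleus then counts the same whatever its depth. CPM values printed for other genes are those of the counts summed per animal, in which deeper nuclei weigh more. In all nuclei together HID1 stood at 33.0, 31.4 and 27.6 CPM in saline replicates 1, 2 and 3, at 38.3, 34.7 and 39.7 CPM in the ASO animals, and at 90.2, 93.0 and 98.0 CPM in the OTV animals. The OTV animals were close to each other and all lay above the other 6. The ratio of the OTV mean to the saline mean was 3.06, and to the ASO mean 2.50. The edgeR log2 fold change on counts summed per animal was 1.68 (SE 0.13) against saline.

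TELO2 had 9.44, 10.4 and 11.2 CPM in saline animals, 5.91, 7.72 and 6.99 CPM after ASO and 39.9, 32.4 and 46.6 CPM after OTV. No animal of one group fell within the range of another, and the order was ASO, saline, OTV. TELO2 had the largest ratios of the 5 genes, 3.83 to saline and 5.77 to ASO, and its log2 fold change against saline was 2.02 (SE 0.20). CLTCL1 showed the same order of groups, with 15.0, 17.5 and 15.3 CPM in saline animals, 10.6, 10.6 and 10.8 CPM after ASO and 38.7, 37.6 and 51.6 CPM after OTV. Its ratio was 2.67 to saline and 3.98 to ASO, with a log2 fold change of 1.46 (SE 0.15) against saline.

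KAT2A stood at 30.2, 38.1 and 51.0 CPM in saline animals, at 24.5, 27.5 and 32.4 CPM after ASO and at 108, 92.8 and 117 CPM after OTV. Saline and ASO animals overlapped, and saline replicate 3, the animal with the smallest share of oligodendrocytes, was the highest of those 6. The ratio to saline was 2.67 and the log2 fold change 1.43 (SE 0.19). SMPD4 had 29.8, 36.4 and 31.6 CPM in saline animals, 32.2, 34.3 and 32.1 CPM after ASO and 69.8, 80.7 and 81.7 CPM after OTV. Its saline and ASO animals lay within the same range, and its ratio of 2.37 to saline (log2 fold change 1.33, SE 0.14) was the smallest of the 5.

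**Figure D1:**
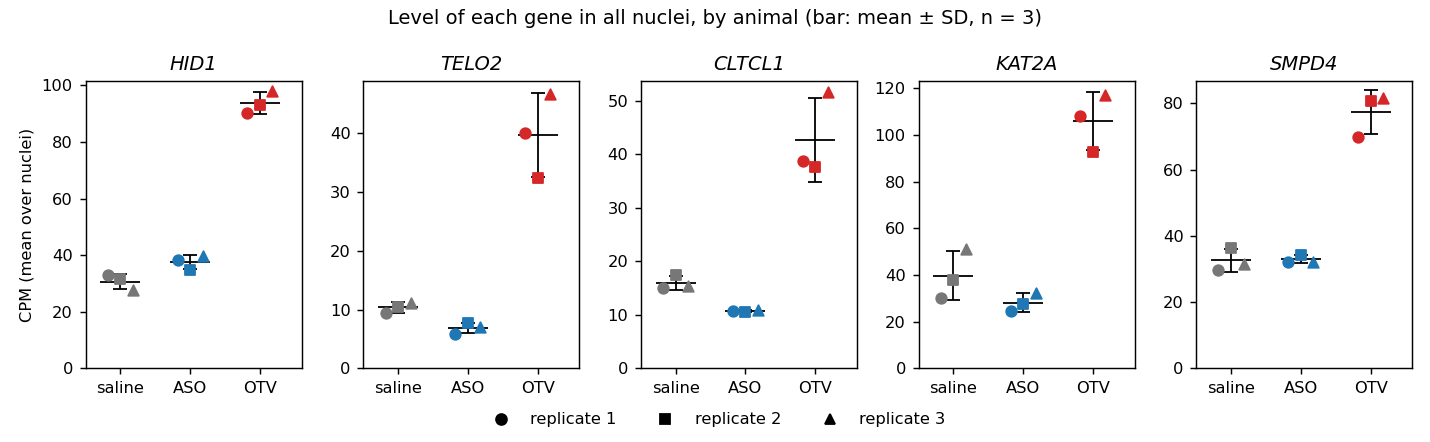
CPM (mean over nuclei, linear axis from 0) of each gene in the 3 animals of each group, with the group mean and SD as black bars. All OTV animals lie above all saline and ASO animals for each of the 5 genes, and TELO2 and CLTCL1 are lowest in the ASO animals.

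For all 5 genes the OTV animals lay above the saline animals without overlap, as they did for 12.5% of the 21854 genes tested. They also lay above the ASO animals for all 5, against 16.5% of all genes. Since the choice used the OTV animals, nothing is read from these counts. A narrower set of 2027 genes had a symbol, a fitted log2 fold change above 0 and no overlap in the CPM of the summed counts, which is not the mean over nuclei. In the order of adjusted p among them, HID1, TELO2 and CLTCL1 came 1, 2 and 3, SMPD4 came 5 and KAT2A 17. The genes next to them were TMEM259 (rank 4, log2 fold change 1.30) and LENG8 (rank 6, 1.15). In oligodendrocytes alone KAT2A, SMPD4 and TELO2 came 1, 2 and 4, HID1 17 and CLTCL1 32, and the next genes were IPO13 (rank 3, 1.29) and SOX2 (rank 5, 1.32). A level over all nuclei cannot tell a change within nuclei from a change in the mix of cell types.

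The share of nuclei with at least 1 UMI of the gene was compared at 1000 UMIs per nucleus, as the exact expectation over thinning. HID1 was seen in 3.22%, 3.07% and 2.67% of nuclei in saline and in 8.38%, 8.74% and 9.05% in OTV animals. For KAT2A these shares were 2.96%, 3.71% and 4.91% against 10.0%, 8.65% and 10.7%. TELO2, the least often seen, went from 0.935%, 1.03% and 1.12% in saline to 3.86%, 3.16% and 4.47% in OTV animals. The shares thus separated these groups as the CPM did. Without thinning, at each animal's own depth, the shares in saline and OTV animals were 17.2% ± 3.00 and 32.5% ± 8.10 for HID1, 22.1% ± 4.12 and 35.7% ± 8.47 for KAT2A, and 6.13% ± 0.843 and 15.3% ± 3.93 for TELO2 (SD, n = 3). For SMPD4 they were 18.8% ± 3.24 and 28.5% ± 6.91 (SD, n = 3), and there the groups overlapped, with OTV replicate 3 at 20.5% below saline replicate 2 at 22.5%. For comparison with the thinned shares, AQP4, an astrocyte gene, was seen at 1000 UMIs per nucleus in 1.27% to 1.47% of oligodendrocytes. CSF1R, a myeloid gene, was seen at 1000 UMIs in 0.701% to 0.857% of astrocytes (both are group means of OTV and saline animals). These are shares in types that should lack the genes. No type is known to lack the 5 genes, so their own background was not tested.

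By cell type, 4 types had at least 20 nuclei in every animal: oligodendrocytes, oligodendrocyte precursor cells (OPCs), astrocytes and myeloid cells. In 18 of the 20 pairs of gene and type all OTV animals lay above all saline animals, beside 16.0% of all pairs, and in 20 of 20 they lay above all ASO animals, beside 17.1%. Both exceptions were CLTCL1, in astrocytes and in OPCs. In these 4 types HID1, TELO2, KAT2A and SMPD4 were thus higher in every type without overlap with saline, and CLTCL1 was not. Since the choice used these OTV and saline animals, this is a description, and nothing is read from the counts. Nuclei that the authors named unknown numbered 12 and 8 in ASO replicates 1 and 2 and were not compared as a type. Among them OTV and saline animals overlapped for 4 of the 5 genes, all but CLTCL1. HID1 was 0 to 48.4 CPM in OTV and 0 to 16.8 CPM in saline animals there, and SMPD4 was 12.7 to 129 and 26.6 to 38.7 CPM.

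HID1 was highest in oligodendrocytes and neurons and was higher after OTV in all 4 types tested. In oligodendrocytes it had 39.0, 38.3 and 52.9 CPM in saline animals, 45.3, 38.2 and 50.0 CPM after ASO and 114, 119 and 125 CPM after OTV. Myeloid cells had the lowest HID1, 2.50, 4.10 and 7.52 CPM in saline and 17.3, 10.1 and 22.9 CPM in OTV animals. The groups did not overlap there, but the values rest on 9, 14 and 12 HID1 UMIs in saline and 61, 12 and 14 in OTV animals. The oligodendrocyte marker list summed to 1181 CPM in myeloid nuclei and 7749 CPM in oligodendrocytes. The part of oligodendrocyte RNA in myeloid HID1 was not tested. The myeloid log2 fold change of 1.70 (SE 0.43) had the widest error of the 4 types. The log2 fold change was 1.38 (SE 0.15) in oligodendrocytes, 1.02 (SE 0.23) in astrocytes and 0.99 (SE 0.23) in OPCs. With counts thinned to the smallest total the astrocyte value was 1.88.

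TELO2 in astrocytes stood at 19.2, 16.7 and 23.1 CPM in saline animals, 8.92, 7.48 and 11.8 CPM after ASO and 56.3, 70.5 and 66.1 CPM after OTV. All 3 groups were separate, in the same order as in all nuclei. Oligodendrocytes repeated that order, with 9.66, 9.82 and 10.1 CPM in saline animals, 5.63, 7.65 and 6.32 CPM after ASO and 39.4, 32.9 and 46.8 CPM after OTV. The log2 fold changes of OTV against saline were 1.90 (SE 0.17) in oligodendrocytes, 1.61 (SE 0.22) in astrocytes, 1.60 (SE 0.26) in OPCs and 1.48 (SE 0.30) in myeloid cells.

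KAT2A was highest in astrocytes, with 79.8, 88.2 and 97.7 CPM in saline animals, 66.3, 75.1 and 82.4 CPM after ASO and 272, 225 and 237 CPM after OTV. The share of astrocytes with AQP4, their water channel, was 41.0% in saline animals, 46.9% after ASO and 18.9% after OTV at 1000 UMIs, and its part in the astrocyte levels was not tested. In OTV animals 21.0% ± 2.09 of astrocytes (SD, n = 3) had a KAT2A UMI at 1000 UMIs, against 8.46% ± 0.807 in saline animals. The mean level of SMPD4 in saline animals was 24.8 to 35.8 CPM over the 4 types, and in OTV animals 45.5 to 85.0 CPM. OPCs gave the tightest SMPD4 values, 24.9, 24.0 and 25.4 CPM in saline against 45.1, 45.9 and 45.4 CPM in OTV animals. With equal weight for each OPC cluster they were wider apart in saline, at 13.7, 22.7 and 31.1 CPM, against 50.5, 53.5 and 53.9 CPM in OTV animals. The SMPD4 log2 fold change in OPCs was 0.93, and 0.36 with counts thinned to the smallest total.

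CLTCL1 differed between types in how far the groups stood apart. In oligodendrocytes it had 13.3, 13.6 and 8.21 CPM in saline animals, 8.92, 9.88 and 8.35 CPM after ASO and 41.1, 32.5 and 59.6 CPM after OTV, a log2 fold change of 1.83 (SE 0.22) against saline. In astrocytes it had 20.5, 36.0 and 11.7 CPM in saline and 29.1, 23.4 and 25.6 CPM in OTV animals, which overlap, and the log2 fold change was 0.23 (SE 0.36). Without saline replicate 3 that value was -0.06, and without saline replicate 2 it was 0.83. In OPCs OTV replicate 3, at 29.7 CPM, lay inside the saline range of 26.7 to 40.4 CPM, while OTV replicates 1 and 2 had 45.3 and 85.7 CPM. Whether the change in CLTCL1 differed between types was not tested.

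**Figure D2:**
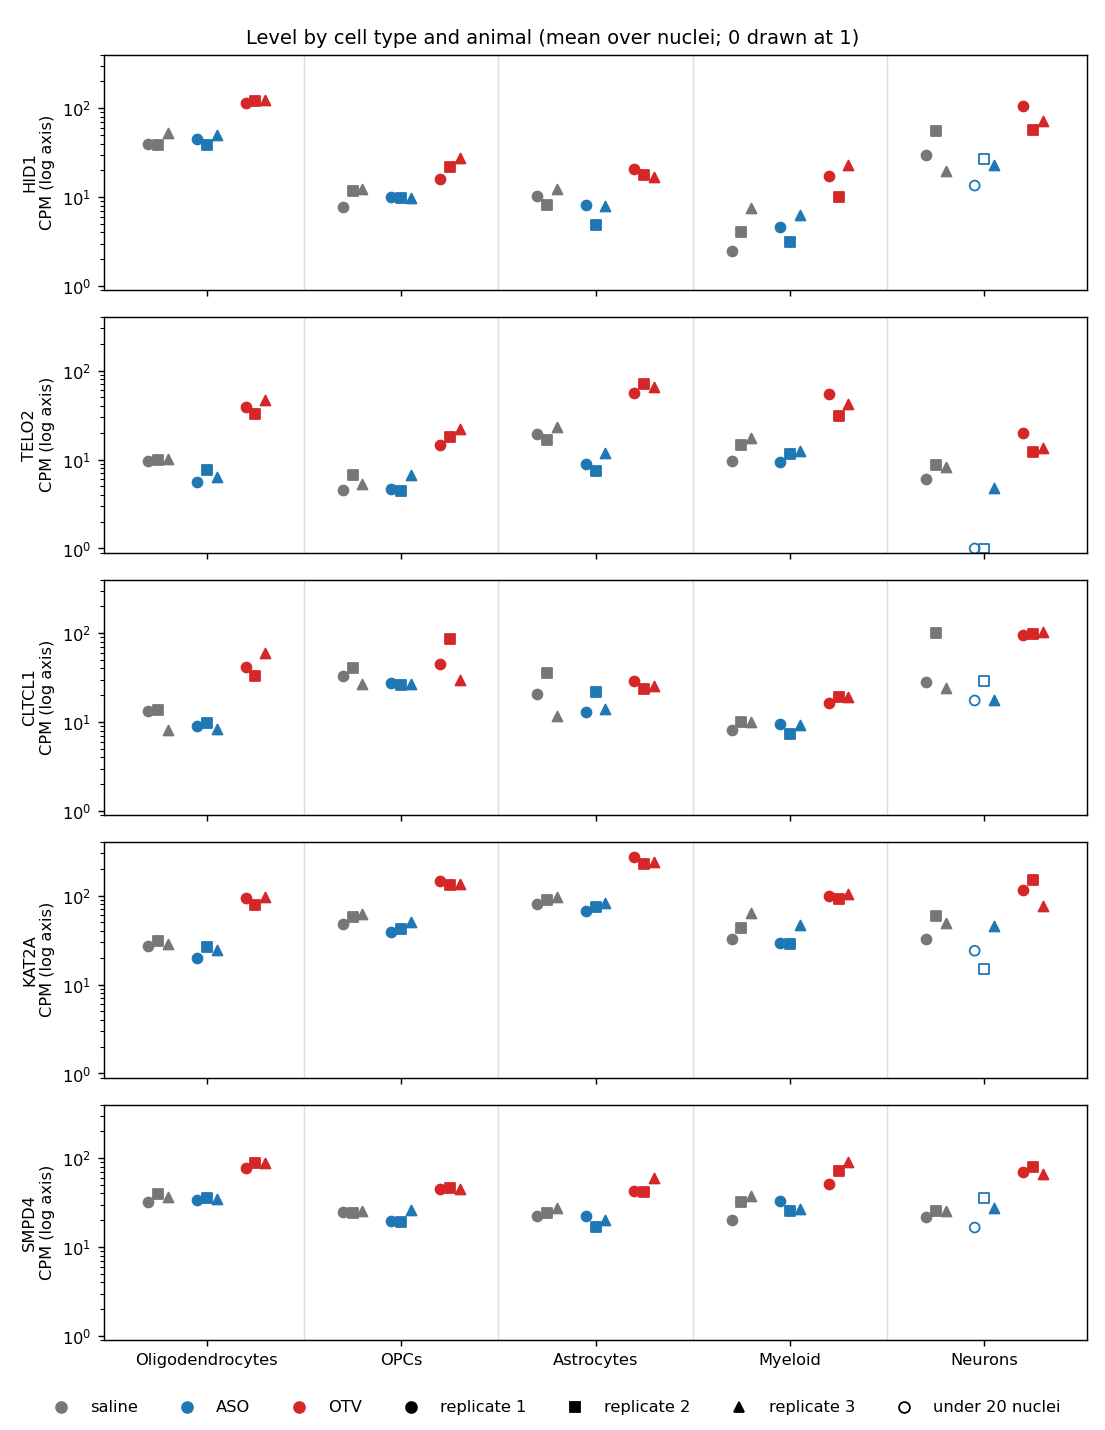
CPM (mean over nuclei, log axis) of each gene by cell type, with 1 point per animal coloured by group, and open points for fewer than 20 nuclei. OTV animals lie above saline animals in the 5 types drawn, except for CLTCL1 in astrocytes, OPCs and neurons, where the groups overlap.

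Neurons fell short of the 20 nuclei in ASO replicates 1 and 2, which had 18 and 17, and saline replicate 2 had 23. HID1 there was 30.0, 55.4 and 19.8 CPM in saline and 105, 57.5 and 72.3 CPM in OTV animals. CLTCL1 was 28.4, 99.4 and 23.9 CPM in saline and 95.5, 98.3 and 103 CPM in OTV animals. The high saline value is that of the animal with 23 neurons, and with it the groups overlap. The mean of KAT2A was 46.6 ± 13.1 CPM in saline and 114 ± 36.8 CPM in OTV animals (SD, n = 3).

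Within types, the authors' clusters were compared where each animal had at least 20 nuclei, which left 10 of 17. OTV animals were all above saline animals in 45 of 50 pairs of gene and cluster (12.2% of all such pairs) and all above ASO animals in 48 of 50 (13.5%). As for the types, nothing is read from these counts. The ratio of OTV to saline means ran from 2.59 to 5.85 for TELO2, 1.96 to 3.80 for HID1, 2.07 to 3.39 for KAT2A and 1.75 to 3.06 for SMPD4. CLTCL1 ran from 1.11 in astrocyte cluster 6 to 4.42 in oligodendrocyte cluster 2. It overlapped saline in clusters 4, 6 and 13, and HID1 did so in clusters 7 and 13. The 5 oligodendrocyte clusters compared had CLTCL1 ratios of 2.95 or more.

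**Figure D3:**
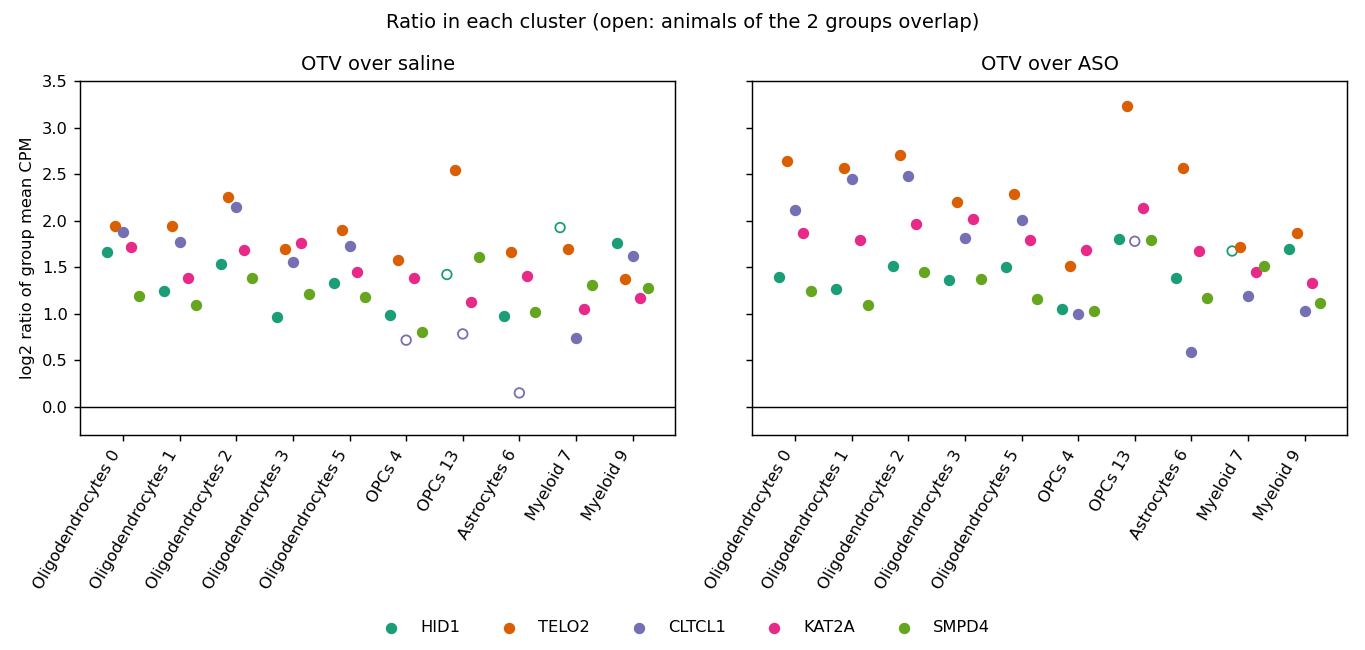
Ratio of the OTV mean CPM to the saline mean (left) and to the ASO mean (right) on a log2 axis, in the 10 clusters with at least 20 nuclei in every animal. All log2 ratios lie above 0, and open points mark the 5 pairs (left) and 2 pairs (right) in which animals of the groups overlap.

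Intrathecal ASO, given against the same RNA target, was compared with saline next. Route and number of doses differ between these groups too and cannot be told apart from the ASO itself. This contrast did not choose the genes, although its saline animals are those the choice used. None of the 5 genes was called in all nuclei by the edgeR quasi-likelihood test (Benjamini-Hochberg adjusted p under 0.05), where 0.032% of 21854 genes were called. The log2 fold changes were 0.29 for HID1 (SE 0.13, adjusted p = 0.534), -0.46 for TELO2 (SE 0.20, adjusted p = 0.520), -0.58 for CLTCL1 (SE 0.15, adjusted p = 0.341), -0.46 for KAT2A (SE 0.19, adjusted p = 0.502) and 0.05 for SMPD4 (SE 0.14, adjusted p = 0.899). TELO2, CLTCL1 and KAT2A had unadjusted p under 0.05, as did 9.51% of all genes. DESeq2 called 1 of the 5, CLTCL1, at -0.58 (adjusted p = 0.0142), beside 1.68% of all genes.

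Across types none of the 20 pairs was called by edgeR, where 0.237% of all pairs were, and 4 had an unadjusted p under 0.05, beside 9.75% of all pairs. The fitted value was below 0 in 19 of 20, beside 49.1% of all pairs. TELO2 stood furthest down, at -1.10 (SE 0.23, edgeR adjusted p = 0.235) in astrocytes and -0.64 (SE 0.17, edgeR adjusted p = 0.153) in oligodendrocytes, and DESeq2 called both (adjusted p = 0.0484 and 0.0331), beside 1.87% of all pairs. In 4 of 20 pairs all saline animals lay above all ASO animals, beside 6.12% of all pairs: TELO2 in astrocytes and oligodendrocytes, KAT2A in oligodendrocytes and SMPD4 in astrocytes. In 0 of the 20 did all ASO animals lie above all saline animals, beside 10.8% of all pairs.

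The choice did not use differences between cell types, although it did use these saline animals. The differences were tested within the saline animals, each type against the mean of the other types with animal as a block. Of 25 pairs of gene and type 8 were higher and 8 lower, beside 26.1% higher and 24.5% lower of all pairs. HID1 was higher in oligodendrocytes by 2.25 on the log2 scale (SE 0.17, edgeR adjusted p = 5.636e-07) and in neurons by 1.23 (SE 0.21, edgeR adjusted p = 0.000463), and lowest in myeloid cells (-2.25, SE 0.27, edgeR adjusted p = 2.04e-05). KAT2A was higher in astrocytes (1.07, SE 0.12, edgeR adjusted p = 1.43e-05) and lower in oligodendrocytes (-0.78, SE 0.13, edgeR adjusted p = 0.000251). TELO2 was also higher in astrocytes (1.28, SE 0.16, edgeR adjusted p = 4.12e-05) and lower in OPCs and neurons (-0.94 and -1.20). CLTCL1 was higher in OPCs (1.03, SE 0.22, edgeR adjusted p = 0.00329) and neurons (1.00, SE 0.25, edgeR adjusted p = 0.00542). In this fit SMPD4 was called in oligodendrocytes alone (0.70, SE 0.11, edgeR adjusted p = 0.000271).

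The 3 ASO animals, which the choice did not use, had too few neurons and were fitted over 4 types, so the mean of the other types holds no neurons there. For a like comparison the saline animals were fitted again without neurons, an alternative chosen after seeing the data, and 11 of 20 pairs were called. Of all 15295 genes tested per type, 4233 were called higher and 3837 lower in astrocytes, and 4391 and 5554 in myeloid cells. The same counts were 4310 and 4339 in oligodendrocytes and 4134 and 3595 in OPCs. HID1 in astrocytes, TELO2 in myeloid cells and CLTCL1 in oligodendrocytes were no longer called (edgeR adjusted p = 0.0621, 0.277 and 0.0750). SMPD4 in astrocytes was called at -0.38 (edgeR adjusted p = 0.0473). In ASO animals 10 of these 11 calls were made again in the same direction, beside 86.1% of all such calls. HID1 in oligodendrocytes was at 2.85 after ASO and 2.69 in saline animals, and CLTCL1 in OPCs at 1.35 and 1.38. KAT2A in astrocytes was at 1.13 and 1.12, and SMPD4 in oligodendrocytes at 0.76 and 0.67. TELO2 in astrocytes was the call not made, at 0.36 after ASO (SE 0.18, edgeR adjusted p = 0.121) and 1.05 in saline animals. In OTV animals, fitted with neurons over 5 types, CLTCL1 was at 0.20 (SE 0.25) in oligodendrocytes and -0.77 (SE 0.30) in astrocytes, where saline animals over the same 5 types had -0.65 and 0.20. In the saline fit over 5 types the call of CLTCL1 in OPCs was lost without saline replicate 1 (edgeR adjusted p = 0.0827).

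**Figure D4:**
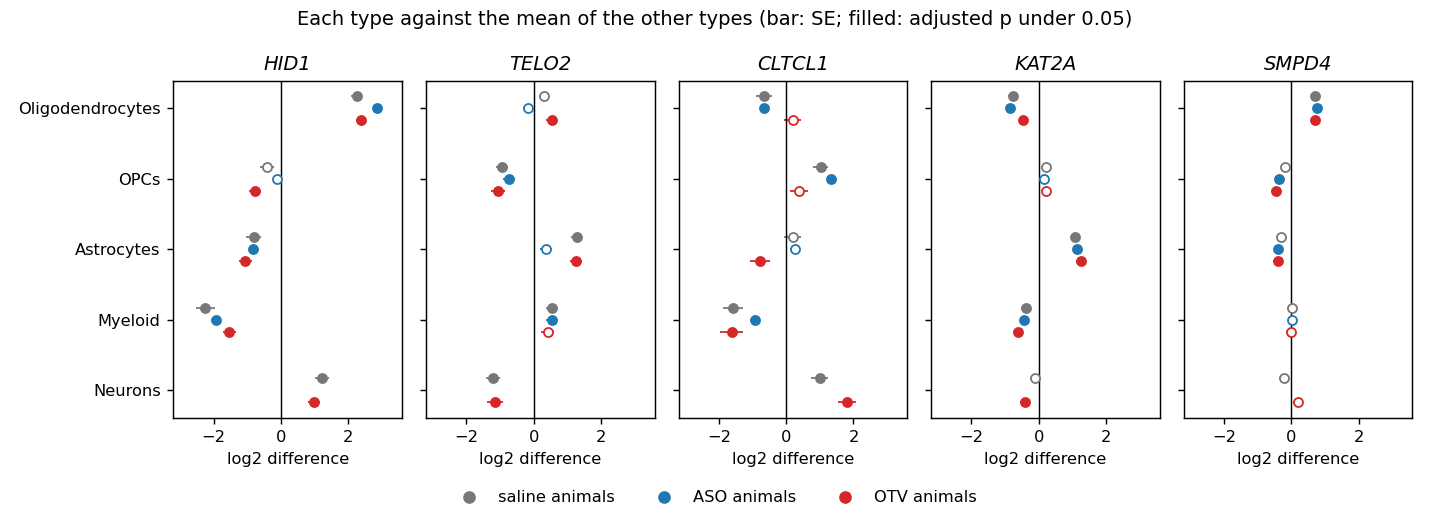
Log2 difference of each type from the mean of the other types, fitted separately in saline, ASO and OTV animals, the ASO fit without neurons (points; bars are SE; filled points have an adjusted p under 0.05). HID1 is highest in oligodendrocytes and KAT2A in astrocytes in all 3 groups, while CLTCL1 in oligodendrocytes is below 0 in saline and ASO animals and at 0.20 in OTV animals.

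The 5 genes did not share 1 pattern over animals and types. Over the 36 sums of 9 animals and 4 types, Pearson's r of log2(CPM + 1) between members ran from 0.04 (HID1 with KAT2A) to 0.75 (TELO2 with KAT2A). These points share animals and libraries and are a description. They mix differences between types with differences between groups, so r does not show how the genes moved across animals within a type. Among the nearest to HID1 were IPO13 (r = 0.96) and PLEKHG3 (0.95). Nearest to TELO2 were TMEM259 (0.94), RHOT2 (0.91) and RFNG (0.87). KAT2A was nearest to KIF1C (0.93), PPP6R2 (0.92) and GTF3C1 (0.91). SMPD4 was near KLC1 (0.90) and RANGAP1 (0.89), and CLTCL1 was nearest to ARVCF (0.82), USP11 (0.80) and VSNL1 (0.79).

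Relatives of 3 members were read in OTV against saline in all nuclei. Their CPM is that of the counts summed per animal, and not the mean over nuclei given for the members. CLTC, the main clathrin heavy chain, had 122 ± 6.64 CPM in saline and 129 ± 6.45 CPM in OTV animals (SD, n = 3; log2 fold change 0.19, edgeR adjusted p = 0.301). KAT2B, the other acetyltransferase that SAGA and ATAC can hold, had 320 ± 55.9 and 353 ± 40.1 CPM (0.24, edgeR adjusted p = 0.378). SMPD2, another neutral sphingomyelinase, had 4.72 ± 0.153 and 3.87 ± 0.339 CPM (-0.18, edgeR adjusted p = 0.665). SMPD3, a further neutral sphingomyelinase, had 1.44 ± 2.18 CPM, mostly from saline replicate 3, and 0.0690 ± 0.0261 CPM (-4.10, edgeR adjusted p = 0.143). None of the 4 relatives passed the test.

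Partners of each member were counted in a list per gene, with OTV against saline in all nuclei. There 5.72% of all genes were called higher and 9.94% lower, and the median log2 fold change was -0.06. The region score was above 0 in all OTV animals and, among saline animals, in replicate 2 alone. With a term for that score 658 genes were called higher and 1682 lower, beside 1250 and 2173 without it. List calls with that term are not reported here, and the part of region in them was not tested. CPM of list genes is again that of the summed counts. The clathrin list had the most calls. Of its 33 tested genes 8 rose and 0 fell, with a median of 0.24. With each animal left out in turn the count was 3 to 9. GAK, which uncoats clathrin vesicles, rose by 1.09 (SE 0.14, edgeR adjusted p = 0.00294), from 38.2 ± 4.25 to 75.6 ± 10.2 CPM. HIP1R, which links coats to actin, rose by 1.11 (SE 0.29, edgeR adjusted p = 0.0329), and both rose in all 4 types. AP2A1 and AP2A2, the alpha subunits of the AP-2 adaptor, rose by 0.93 and 0.70 (edgeR adjusted p = 0.00349 and 0.0174). Over the 4 types 31 of 132 pairs of list gene and type rose and 3 fell, beside 7.31% and 10.3% of all pairs.

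For TELO2 the list held the TTT and R2TP chaperones and the kinases they serve. Of 12 genes 2 rose, ATR and SMG1, and 0 fell, with a median of 0.37. SMG1, a kinase of nonsense-mediated RNA decay, rose by 0.64 (SE 0.17, edgeR adjusted p = 0.0351), from 105 ± 4.40 to 152 ± 35.4 CPM. TRRAP rose in astrocytes, oligodendrocytes and OPCs (0.58, 0.42 and 0.43; edgeR adjusted p = 0.0192, 0.0110 and 0.0246) and was at 0.35 in all nuclei (edgeR adjusted p = 0.122). In pairs of gene and type 7 of 48 rose and 0 fell. With each animal left out in turn the count in all nuclei was 0 to 2, and it was 0 with only the 6 saline and OTV animals.

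Among 30 subunits of SAGA and ATAC 4 rose and 0 fell, with a median of 0.17. ATXN7L3, which supports the deubiquitinase of SAGA, rose by 1.39 (SE 0.22, edgeR adjusted p = 0.00496), from 5.47 ± 0.624 to 13.4 ± 0.910 CPM. TADA2B, SGF29 and ATXN7L2 were the other 3 and were named after their values were seen. In pairs 10 of 115 rose and 4 fell, and leaving out each animal gave 1 to 5 genes in all nuclei.

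The dense-core vesicle and recycling partners of HID1 and the sphingolipid enzymes around SMPD4 had few calls. Of 19 HID1 partners 1 rose, VPS53, a subunit of a tethering complex for recycled membranes (0.62, SE 0.14, edgeR adjusted p = 0.0208), and 0 fell. PICK1 was at 1.74 (SE 0.58, edgeR adjusted p = 0.0782). The median of the list was -0.18, and 3 of 59 pairs rose and 3 fell. Of 32 sphingolipid genes 1 rose and 2 fell, with a median of -0.02. SPTLC3, a subunit of serine palmitoyltransferase, fell by 2.14 (SE 0.41, edgeR adjusted p = 0.0106), from 9.58 ± 4.75 to 2.03 ± 0.836 CPM. SGMS2, a sphingomyelin synthase, fell by 1.56 (SE 0.34, edgeR adjusted p = 0.0178). In pairs 5 of 105 rose and 4 fell. Leaving out each animal gave 0 to 2 calls for the HID1 list and 0 to 3 for this one. In ASO against saline no gene of the 5 lists was called by edgeR in all nuclei or in a type.

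**Figure D5:**
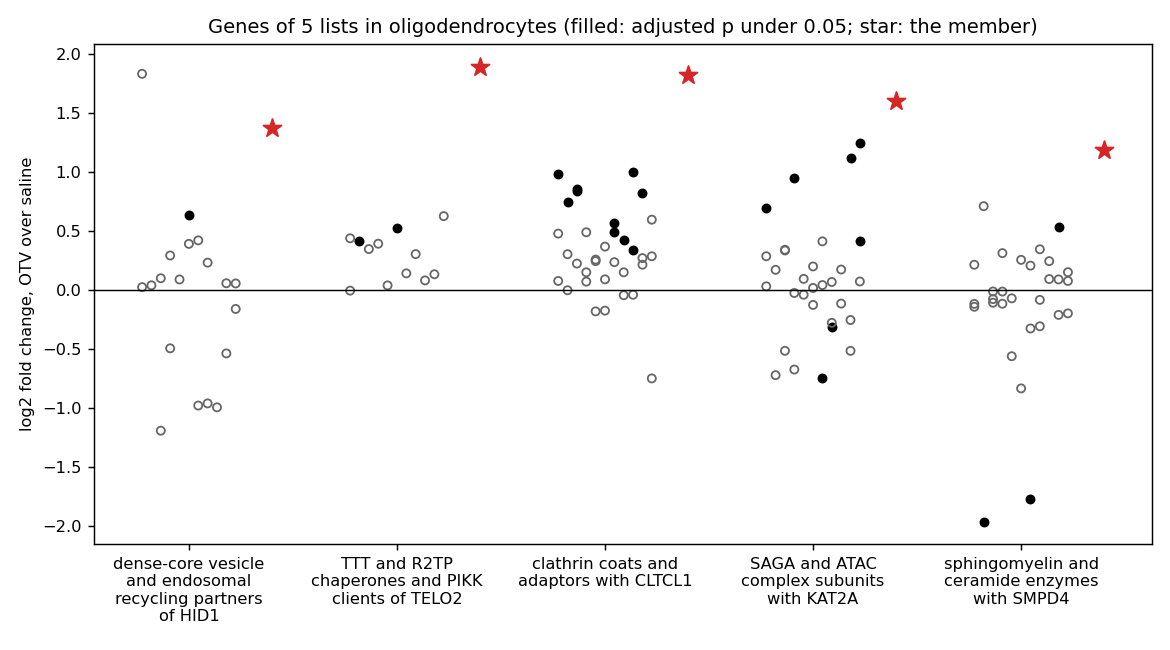
Log2 fold change of OTV against saline in oligodendrocytes for each tested gene of the 5 lists (circles; filled where the adjusted p is under 0.05), with the member beside its list as a star. Of the 33 clathrin genes 10 rose and 0 fell, beside 7.52% and 11.7% of all genes tested there, and the stars lie between 1.19 and 1.90.

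The nearest protein-coding genes on either side of each member were read in the same contrast. They were taken by order in the RefSeq gene table of assembly T2T-MFA8v1.1, among genes whose symbol the matrix holds. A nearer gene without such a symbol would be passed over. Of 9 tested in all nuclei 1 rose, CDR2L beside HID1 (1.17, SE 0.23, edgeR adjusted p = 0.0120), and 0 fell, beside 5.72% and 9.94% of all genes. HIRA beside CLTCL1 was at 0.37 (edgeR adjusted p = 0.0533) in all nuclei and rose in oligodendrocytes and OPCs (0.34 and 0.45, edgeR adjusted p = 0.0308 and 0.0138). OTOP3 beside HID1, PTX4 and IFT140 beside TELO2, SLC25A1 beside CLTCL1, DHX58 and RAB5C beside KAT2A and IMP4 beside SMPD4 were not called in all nuclei or in any type. CDR2L also rose in oligodendrocytes (0.70, edgeR adjusted p = 0.0271). Thus 3 of 31 pairs of neighbour and type rose, beside 7.31% of all pairs. The labels do not say whether counting used strand, so reads of overlapping genes cannot be told apart.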

How the data were processed

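The authors deposited 1 matrix of raw UMI counts and a table of nuclei with the cell type, the cluster, the percent of ribosomal UMIs and a doublet score. Total counts in that deposited table equal the sums over the matrix. All nuclei are called singlets there. The submitters' processing notes name Cell Ranger 6.1.2, Seurat 4 and GRCh38.p13, a human build, while the features carry cynomolgus identifiers, so the build behind the counts is not settled here and no coordinates are given. Sums per animal (all nuclei, and each type with at least 20 nuclei in every animal) were fitted with edgeR 4.0.16 (R 4.3.3): TMM, filterByExpr, robust quasi-likelihood, all 9 animals. DESeq2 1.42.0 was an alternative. Adjusted p values are Benjamini-Hochberg over all genes tested, called under 0.05. SE is the log2 fold change over the root of F. Shares were computed at 1000 UMIs per nucleus. Scripts were tested on simulated data. Members, lists and tests were chosen with earlier results of these data known. Named genes are the members, the 2 next in rank, the 3 most correlated per member, neighbours, and per list up to 4 genes called in 3 types or else the 2 with the smallest p. RefSeq symbols matched all 5 members. Some genes that this rule or a marker list covers are not reported here.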

Additional observations from a re-analysis of the deposited data

How the results depend on the processing

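No paired analysis was possible because the labels carry no number that links animals of different groups. Members called in ASO against saline were 0 in all nuclei and 0 in the types, and 1 and 2 with DESeq2. The log2 fold change of CLTCL1 in all nuclei was 1.29 with only the 6 animals of a region score above 0, chosen after seeing the data. Those hold 1 saline animal, replicate 2, so each value from them rests on that library, which is assumed to vary like the other groups. SMPD4 was 1.20 with a term for that score and 1.11 in those 6 animals. In astrocytes the sign of CLTCL1 turned: -0.38 after thinning to the smallest total, -0.0828 with the region term, -0.42 in the 6 animals, whose lone saline animal had the highest astrocyte CLTCL1 of all 9 (36.0 CPM), and -0.0631 to 0.831 with each animal left out. SMPD4 in ASO against saline was -0.0803 in the 6 animals and -0.0247 to 0.170 with each animal left out. Cell type calls numbered 16, and 12 to 14 with each saline animal left out. Thinning every sum to the smallest total, that of the 23 neurons of saline replicate 2, left 0 calls and put SMPD4 in oligodendrocytes at -1.95 (edgeR adjusted p = 0.751). Without thinning, log2 ratios of shares were 0.92 for HID1, 1.33 for TELO2, 0.80 for CLTCL1, 0.69 for KAT2A and 0.60 for SMPD4. With equal weight for each cluster they were 1.31 for HID1 and 1.24 for CLTCL1, and 1.35 for the CPM of HID1. List calls moved to 3 for HID1 with DESeq2, to 0 for TELO2, 3 for clathrin and 1 for SAGA with the 6 compared animals, and to 2 for SAGA after thinning. With each animal left out they were 0 to 2 (HID1), 0 to 2 (TELO2), 3 to 9 (clathrin), 1 to 5 (SAGA and ATAC) and 0 to 3 (SMPD4). List calls with the region term are not reported here. Except where a construction is named, the cause was not tested.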
